A study of Mus musculus with 28 samples.

Results

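The step from stages IV-VI to stages VII-VIII of the seminiferous epithelium was measured as the difference between group D (stages VII-VIII) and group C (stages IV-VI) of sorted mouse Sertoli cells. The 4 libraries compared, 2 in each group, were taken by their labels from 10 sorted libraries in a series of 28. The spread between replicates was estimated over all 10 sorted libraries. Besides C and D these form groups A, B and E, with 2 libraries each, which are enriched for stages XI-XII (A), stages I-III (B) and stages IX-X (E). All 10 came from RFP heterozygote, Amh-Cre-positive animals, in which Cre under the Amh promoter switches on a red reporter in Sertoli cells, and were obtained by sorting red cells from fresh testis. The strain label is C57BL/6 x 129s4/SvJae for all 4 libraries of C and D; group A replicate 1 carries another one, which names an Amh-Cre background. Another 18 libraries, 2 for each of 9 days, are whole testes of NANOS2 KO mice on a CD1 background, which lack germ cells and hold every somatic cell of the testis. Every animal of both sets had received WIN 18,446, an inhibitor of retinoic acid synthesis, for 7 days and retinoic acid on the next day. Tissue was taken between day 42 and day 50 after that injection, so that control and knockout animals alike had gone through the same block and release. Stage groups were assigned by the submitters from the stages most enriched, and no library was labelled as a single stage. Nothing in the labels says that the 2 libraries of a group are separate animals, so p-values measure the spread between these libraries, which may be technical.

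Sertoli cells are the somatic cells that enclose and nourish germ cells, and their transcription is known to cycle with the stage of the epithelium. In stages VII and VIII mature spermatids are released into the lumen, the cytoplasm they shed is taken up by Sertoli cells as residual bodies, the barrier between Sertoli cells is rebuilt around entering spermatocytes, and retinoic acid signalling and the androgen response are known to be high. Elongated spermatids are anchored by the ectoplasmic specialization, a Sertoli cell junction built on bundled actin.

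Total counts in the 4 libraries ran from 2686399 to 3826087, so that 3 counts equal 0.784 to 1.12 CPM (counts per 1000000 of a library). The targeted gene Nanos2 had 1 count over C and D, 2 over all sorted libraries and 0 in the knockout, so it does not check the genotype labels. Each of 14 Sertoli markers, among them Sox9, Gata4, Cldn11 and Clu, had counts in every sorted library, and 12 of the 14 exceeded 10 CPM in each. The exceptions were Amh, at 4.216 to 22.8 CPM, and Trf, at 0.512 to 6.31 CPM. Trf was under the level of 3 counts in group C replicate 1 and in group D replicate 2. Group C replicate 1 stood apart from its partner. Over the 500 most variable genes the root mean square log2 distance was 1.72 between the libraries of C and 0.806 between those of D. Group C replicate 2 lay 1.33 and 1.19 from the libraries of D, nearer to them than to its own replicate, whereas group C replicate 1 lay 2.51 and 2.43 away. Whether the stage label fits both libraries of C could not be settled from the files, which bears on every value from C to D. Mitochondrially encoded genes took 4.64% and 6.83% of the counts in C, and 12.3% and 4.43% in D, so this share differed within D by more than between the groups.

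Between stages IV-VI and VII-VIII nearly all genes that passed the test fell. Of 14331 genes tested, 90 (0.628%) were called at a Benjamini-Hochberg adjusted p under 0.05 by edgeR's quasi-likelihood test. Of these, 88 (0.614%) were lower in D and 2 (0.014%), Gsta3 and Tbc1d10c, were higher, and all 90 differed by at least 2-fold. At an unadjusted p under 0.05 the split was less one-sided, with 674 genes higher and 931 lower, and the median log2 change of all genes tested was -0.002. The calls rested on few libraries: 24 genes passed without group C replicate 1, 392 without group C replicate 2, and 0 without either library of D (556 higher and 559 lower at an unadjusted p under 0.05 without replicate 1, 544 and 846 without replicate 2). Leaving out 1 library of E left 27 or 31 calls, and leaving out 1 of A gave 188 or 189. Without group C replicate 2 most calls were higher in D, so the one-sided fall did not hold there. In each of these fits all 90 genes kept the sign of their change. Groups C and D did not overlap in any called gene, as in 5700 of the 14331 genes tested. Leaving out 1 library could therefore hardly reverse a sign, so the kept signs do not measure stability. DESeq2, fitted on the same genes, called 309, with 245 lower and 64 higher. With no filter edgeR called 617, with 380 lower and 237 higher. Just inside the threshold lay Epb4.1l4b at a log2 change of -1.84 (adjusted p = 0.0485), and just outside it Dpysl5 at -1.38 (0.0506) and the mitochondrial gene mt-Nd6 at 1.80 (0.0511).

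**Figure D1:**
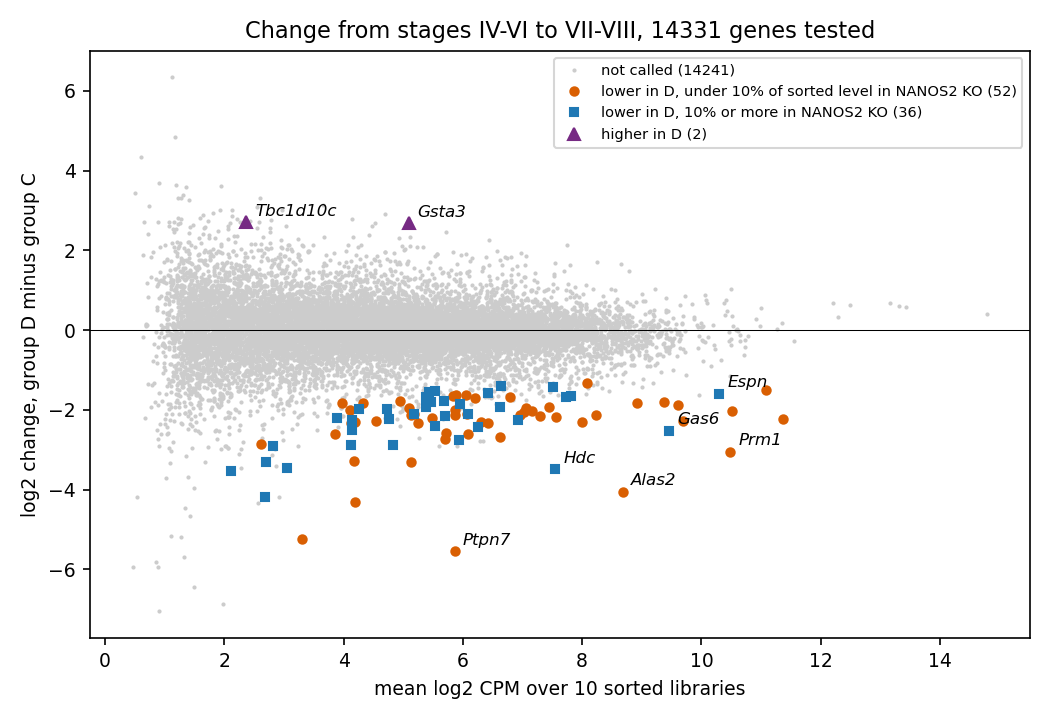
Log2 change from group C to group D against the mean log2 CPM over the 10 sorted libraries, 1 point per gene tested. The 88 genes called lower have log2 changes from -5.55 to -1.32, with Ptpn7 lowest of the labelled genes. The 2 called higher, Gsta3 and Tbc1d10c, are at 2.68 and 2.70. Genes not called run from -7.05 to 6.34, so the size of a change does not set the called genes apart.

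The genes that fell were divided by their level in the NANOS2 KO testes, which the comparison of C with D does not use. For each gene the mean CPM over the 18 knockout libraries was divided by the mean over groups A, B and E, with all 28 libraries scaled together. Of the 88 genes that fell, 52 (59.1%) had a ratio under 0.1, against 15.8% of all genes tested, and 36 had a higher one. The values nearest the cutoff were 0.0573 for Odf2 and 0.101 for Chst5. The medians were far apart, 0.000164 among the 52 and 0.707 among the 36. In 17 of the 52 the knockout had no count in any library. Tissue, strain and sorting differ between the sets along with germ cells, so their parts in this ratio cannot be told apart. In bulk libraries fewer cells of a type and less RNA per cell cannot be told apart either, and this holds for every fall below. The median log2 change was nearly the same, -2.14 for the 52 and -2.13 for the 36. Without group C replicate 1, 22 of the 24 genes that fell had a ratio under 0.1 and 2 did not, and without group C replicate 2 the split was 75 and 80.

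The promoters of the 2 classes differed in composition. RefSeq windows of GRCm38.p6, from 250 bases before to 50 after a start site, were matched by symbol for 37 of the 52 genes that were low in the knockout (46 windows), 27 of the 36 others (36 windows) and 1 of the 2 genes that rose. The median GC content was 53.5% for the 52 genes, 61.8% for the 36 and 60.3% for all genes tested. Searched on both strands, the letters GGGCGG, known as the GC box, were present in 30.4% of the windows of the 52 genes, 66.7% of those of the 36, 60.1% of the windows of all genes tested and 35.7% of all RefSeq windows. The letters TGANGTCA, which resemble a cAMP response element, ran the other way, with 28.3% (13 of 46), 2.78% (1 of 36), 8.19% and 8.83%. The letters TATAAA, known as the TATA box, were in 13%, 8.33%, 7.1% and 13.6% of these sets in the same order, and AGATAA, the motif of GATA factors, in 6.52%, 5.56%, 6.18% and 11.2%. AGGTCA, a nuclear receptor half-site that 1 form of the cAMP-like letters contains, was in 23.9%, 8.33%, 13.2% and 16.3%, and AGAACA, an androgen receptor half-site, in 6.52%, 16.7%, 12.8% and 19%. These letters were chosen after the genes were known, windows of 1 gene overlap in part, and a match is not evidence of a bound site. The 250 bases before the start site are printed 5′ to 3′ for 5 genes on which the account below turns, in lower case with matches to any of these letters, on either strand, in capitals. Gas6 (chr8:13494536-13494785, minus strand) and Cyp26b1 (chr6:84593811-84594060, minus strand) come from the genes at or over the cutoff, Prm1 (chr16:10796824-10797073, minus strand) and Tnp1 (chr1:73015900-73016149, minus strand) from those under it, and Gsta3 (chr1:21240335-21240584, plus strand) from the rises.
Gas6: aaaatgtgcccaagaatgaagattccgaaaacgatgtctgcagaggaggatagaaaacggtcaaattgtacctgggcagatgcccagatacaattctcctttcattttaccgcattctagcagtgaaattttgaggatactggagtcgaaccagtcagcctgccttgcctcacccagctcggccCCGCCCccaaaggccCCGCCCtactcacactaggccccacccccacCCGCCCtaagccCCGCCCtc
Cyp26b1: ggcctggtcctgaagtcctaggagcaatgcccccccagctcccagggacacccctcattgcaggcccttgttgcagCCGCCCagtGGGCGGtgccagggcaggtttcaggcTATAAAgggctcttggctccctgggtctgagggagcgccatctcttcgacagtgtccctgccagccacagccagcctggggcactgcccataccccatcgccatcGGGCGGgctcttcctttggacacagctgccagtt
Prm1: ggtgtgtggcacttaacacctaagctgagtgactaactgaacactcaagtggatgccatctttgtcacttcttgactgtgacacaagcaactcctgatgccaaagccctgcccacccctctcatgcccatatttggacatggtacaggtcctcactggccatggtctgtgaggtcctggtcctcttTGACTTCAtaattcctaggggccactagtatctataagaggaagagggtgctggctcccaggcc
Tnp1: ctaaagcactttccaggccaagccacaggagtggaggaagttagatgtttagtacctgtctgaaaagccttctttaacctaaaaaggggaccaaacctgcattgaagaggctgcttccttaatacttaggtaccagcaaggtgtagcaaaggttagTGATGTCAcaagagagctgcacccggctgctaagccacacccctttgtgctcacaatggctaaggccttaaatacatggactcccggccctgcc
Gsta3: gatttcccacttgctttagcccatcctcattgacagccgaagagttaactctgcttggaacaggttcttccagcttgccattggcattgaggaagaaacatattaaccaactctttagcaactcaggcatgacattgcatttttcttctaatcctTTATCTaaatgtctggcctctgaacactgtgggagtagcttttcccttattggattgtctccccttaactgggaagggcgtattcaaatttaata
The Gas6 window holds 4 GC boxes, the Cyp26b1 window 3 GC boxes and a TATA box, the Prm1 and Tnp1 windows 1 cAMP-like match each, and the Gsta3 window a single GATA match. The cAMP-like match of Prm1 and Tnp1 is not typical of their class, where 13 of 46 windows hold one.

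Among the 36 genes at or over the cutoff, the fall with the smallest p was that of Hdc, histidine decarboxylase, the enzyme that makes histamine. It stood at 376.0 and 234.6 CPM in C and at 23.2 and 30.8 CPM in D, with 198.2 and 224.0 in A, 231.7 and 365.8 in B, and 106.5 and 74.7 in E. Both libraries of D were below all 8 others, and the log2 change from C to D was -3.49 (SE 0.36, adjusted p = 0.00194, edgeR quasi-likelihood). In the knockout Hdc ranged from 130.8 to 198.8 CPM with a median of 168.2. The gene lies at chr2:126593667-126619299 in GRCm38, as do the other positions given here.

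Gas6 (chr8:13465374-13494490) encodes a secreted ligand that bridges dying cells and residual bodies to the receptors TYRO3, AXL and MERTK. It was at 941.6 and 726.6 CPM in C and at 132.7 and 157.8 CPM in D, a log2 change of -2.52 (SE 0.29, adjusted p = 0.00217, edgeR quasi-likelihood). Groups A and B held 953.5 to 1141 CPM, and group E 546.3 and 373.6, so the level in E was again above that of D. In the knockout it ranged from 336.0 to 630.4 CPM, median 473.6. Gas6 and Hdc were the 2 genes of this class that passed without group C replicate 1. The receptors, named here after their values were seen, did not pass: Axl changed by -0.31 (adjusted p = 0.7145), Mertk by 0.35 (0.833) and Tyro3 by 0.20 (0.850). Of 17 tested genes of engulfment, Gas6 was the 1 that fell and none rose, against 0.614% and 0.014% of all genes tested, and the median log2 change of the list was 0.20.

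Espn (chr4:152120331-152152371), which encodes espin, an actin-bundling protein of the ectoplasmic specialization, was the most abundant of the class. Its levels were 1298 and 1226 CPM in C, 380.0 and 456.8 CPM in D, and 1210 and 955.8 CPM in E. Groups C and D did not overlap, as in 5700 of the 14331 genes tested. The log2 change was -1.59 (SE 0.25, adjusted p = 0.0171, edgeR quasi-likelihood). Ptk2b, the focal adhesion kinase relative PYK2, fell from 128.1 and 102.1 CPM to 21.8 CPM in both libraries of D (log2 -2.40, SE 0.38, adjusted p = 0.0171). Its course differed from that of Espn: it was at 46.6 and 98.9 CPM in B and lower still in E, at 7.62 and 6.49 CPM. Neither passed without group C replicate 1, by the same edgeR test. These were the 2 of 28 tested genes of the ectoplasmic specialization and actin bundles that fell, against 0.614% of all genes tested, none rose, and the list's median was -0.13. Arhgef25, a guanine nucleotide exchange factor, fell from 269.6 and 186.2 to 42.4 and 53.6 CPM (log2 -2.24, SE 0.34), and Arhgef37, of the same family, from 57.2 and 37.5 to 5.90 and 6.92 CPM (-2.87, SE 0.42). Both had an adjusted p of 0.0142 by edgeR, and neither passed without group C replicate 1.

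Cyp26b1 (chr6:84571414-84593908), an enzyme that breaks down retinoic acid, was at 170.3 and 120.0 CPM in C and at 22.5 and 30.8 CPM in D (log2 -2.44, SE 0.35, adjusted p = 0.0141, edgeR quasi-likelihood). It stayed at 24.8 and 22.4 CPM in E, and the libraries of A lay between, at 62.4 and 55.2 CPM. The knockout held more than any sorted library, from 241.2 to 580.7 CPM with a median of 360.4. Cyp26b1 did not pass without group C replicate 1. Among the 20 tested genes of retinoid uptake, synthesis, binding and degradation it was the 1 that fell, against 0.614% of all genes tested, with none higher and a list median of 0.15. Stra6, the retinol receptor, shows how the libraries of C differed: it had 8.43 and 150.6 CPM in C and 234.4 and 209.1 CPM in D. Its log2 change of 1.47 (SE 0.75) had an adjusted p of 0.499, and it is named after its values were seen. Cyp26a1, also named after its values were seen, had the largest positive change on the list. It had 0 and 7.185 CPM in C and 16.59 and 21.01 CPM in D (log2 2.34, SE 0.78, adjusted p = 0.255, edgeR quasi-likelihood). The fall of Cyp26b1 is therefore not a fall of every gene of retinoic acid breakdown.

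Tfeb, a transcription factor that drives lysosome and autophagy genes, fell from 113.8 and 73.4 CPM to 19.5 and 22.6 CPM (log2 -2.15, SE 0.37, adjusted p = 0.0250, edgeR quasi-likelihood). It was the 1 called gene of 22 on the lysosome and autophagy list, against 0.628% of all genes tested. Of the 22, 19 had a positive sign, against 7142 of the 14331 genes tested, and the list's median was 0.18. The summed level of the list was 4965 and 7240 CPM in C and 7483 and 7546 CPM in D, so group C replicate 1 was the low one and the other 3 were close together. Tfeb did not pass without either library of D or of E or without group C replicate 1. Etv5, a transcription factor of spermatogonia and of Sertoli cells, fell from 188.5 and 158.1 to 62.3 and 66.9 CPM (log2 -1.42, SE 0.28, adjusted p = 0.0413). It was the 1 of 13 spermatogonial markers that was called (0.628% of all genes tested), its median in the knockout was 100.9 CPM, and its call was lost on leaving out any of 7 of the 10 libraries.

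Il17re, Slc16a4 and Fam105a complete the class among the genes with the smallest p. Il17re, a receptor subunit for interleukin 17 family ligands, fell from 86.7 and 61.2 to 6.27 and 15.1 CPM (log2 -2.75, SE 0.41). Slc16a4, of the monocarboxylate transporter family, fell from 14.8 and 9.68 to 1.47 and 0.769 CPM, which rests on 73 counts in C and 7 in D. Fam105a fell from 39.0 and 27.5 to 8.11 and 6.15 CPM. Their adjusted p ran from 0.0142 to 0.0208 (edgeR), and none of these calls held without group C replicate 1.

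The rest of the class had log2 changes from -1.41 (Tnfrsf1a) to -4.17 (Chst5). The class reaches down to the cutoff, and some of its members were scarce in the knockout, such as Chst5, at 10.1% of its level in groups A, B and E and a mean of 0.626 CPM, and Mest, at 12.8%. Several of these genes, named after their values were seen, encode signalling proteins. Spry1, an inhibitor of receptor tyrosine kinase signalling, stood at 37.9 and 31.6 CPM in C and at 9.58 and 10.3 CPM in D, and Plcb3, a phospholipase C, at 120.1 and 99.0 CPM in C and at 24.7 and 35.6 CPM in D. Pcsk6, a proprotein convertase that processes growth factor precursors, had 96.6 and 109.6 CPM in C and 32.1 and 37.2 CPM in D. The secreted glycoprotein gene Reln had 41.1 and 34.1 CPM in C and 9.21 and 8.20 CPM in D. Tnfrsf1a, a receptor for tumour necrosis factor, had 146.1 and 129.3 CPM in C and 43.5 and 60.0 CPM in D. Of all 14331 genes tested, 5700 showed no overlap between C and D. The groups did not overlap in any of these 5 genes, their adjusted p ran from 0.0230 (Spry1) to 0.0459 (Tnfrsf1a) by edgeR, and none of these calls held without group C replicate 1 or without either library of D or of E.

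**Figure D2:**
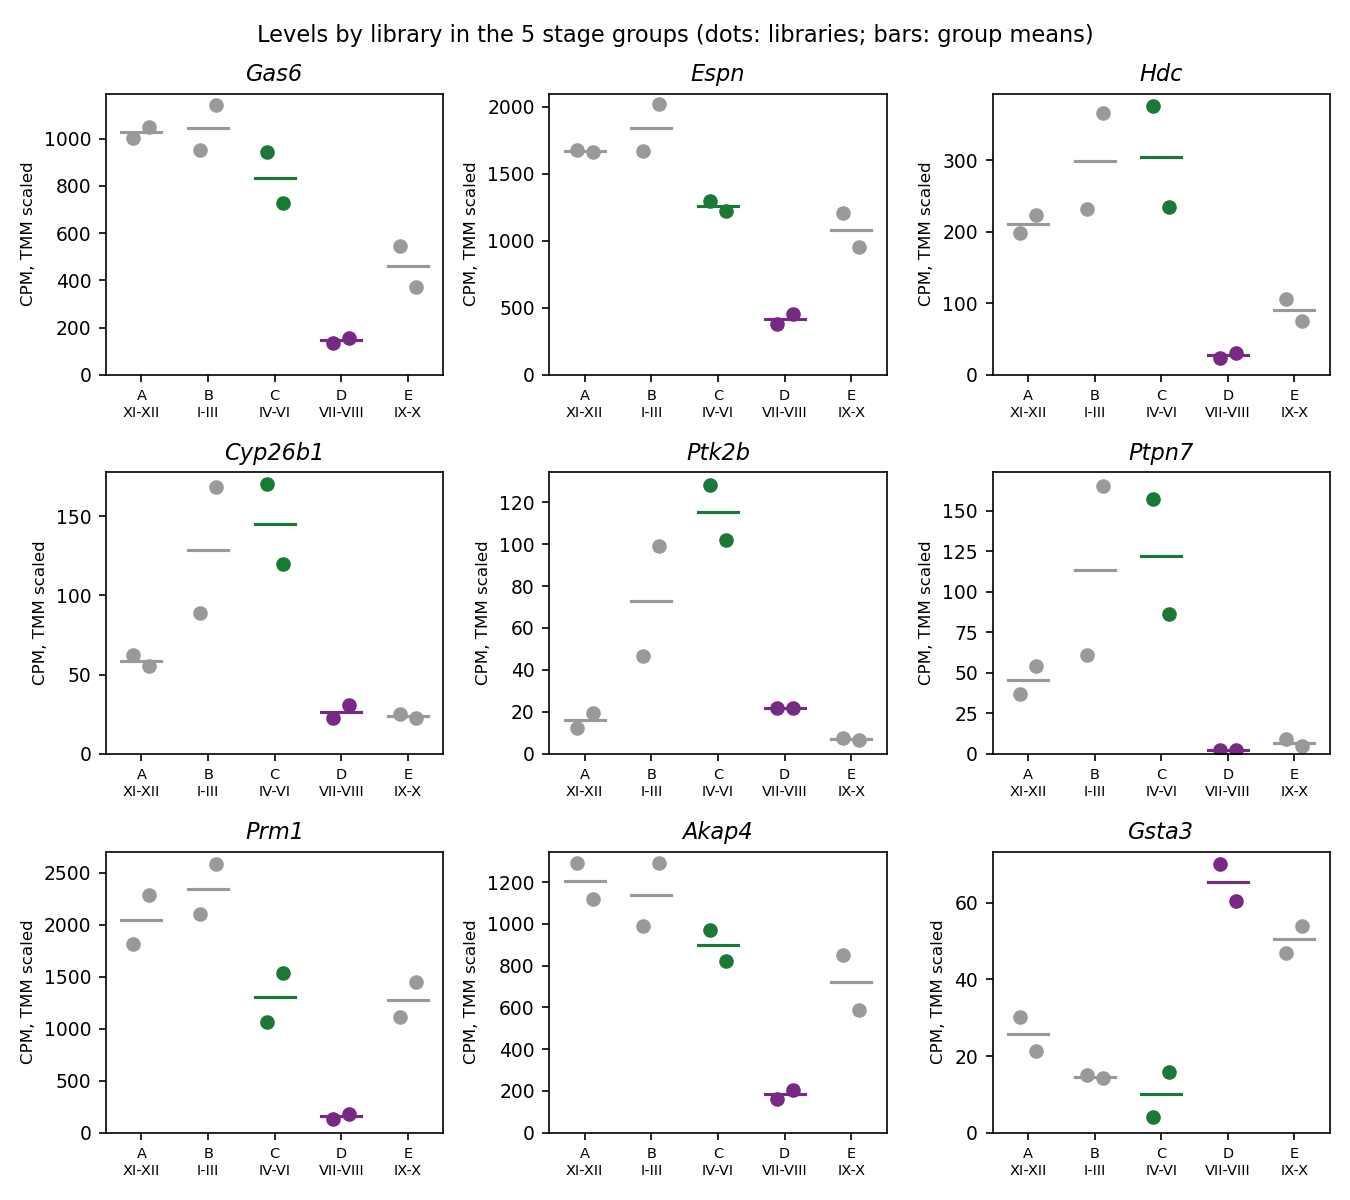
CPM, scaled by TMM, of 9 genes in the 10 sorted libraries, with 1 dot per library and a bar at the mean of each stage group. In each panel the 2 libraries of D lie apart from those of C; Gas6, Espn, Prm1 and Akap4 are higher again in E, whereas Cyp26b1 and Ptk2b stay low.

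The other class, the 52 genes low in the knockout, was led by genes of late spermatids. Prm1 (chr16:10796326-10805839), the protamine that packs sperm DNA, had 1066 and 1539 CPM in C and 130.8 and 183.7 CPM in D. The libraries of A and B held 1815 to 2581 CPM and those of E 1108 and 1447 CPM, so D was below all 8 others. The log2 change from C to D was -3.05 (SE 0.32, adjusted p = 0.00194, edgeR quasi-likelihood). Tnp1, the transition protein that precedes the protamines, fell from 828.9 and 863.4 to 181.0 and 237.3 CPM (log2 -2.02, SE 0.26, adjusted p = 0.00662). Akap4, an anchoring protein of the sperm tail's fibrous sheath on chromosome X, fell from 972.2 and 823.4 to 161.1 and 207.0 CPM (log2 -2.29, SE 0.29, adjusted p = 0.00624) and had 0 counts in all 18 knockout libraries. Among the settings that tested them, these 3 genes failed the test only where a library of D was left out.

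Of the 19 genes of the elongating spermatid list, 9 fell and none rose: Prm1, Akap4, Tnp1, H2afb1, Ubqlnl, Prm2, Spata3, Odf2 and Gapdhs. That is set against 0.614% of all genes tested, and the list's median log2 change was -1.50. The list was written with earlier results of these data known, so this count is a description and not a separate test. The count was 6 without either library of C, 5 without either library of E, and 0 without either library of D. The summed level of the list was 11090 and 16220 CPM in C and 4597 and 6019 CPM in D. As a share of all counts this was 1.15% and 1.58% in C and 0.464% and 0.614% in D, against 0.0177 to 0.0248% in the knockout. Hils1, the spermatid linker histone, had the largest positive change on the list, at 23.2 and 65.3 CPM in C and 96.6 and 149.9 CPM in D (adjusted p = 0.266), and is named after its values were seen. Lists of earlier germ cells held 0 or 1 call each, against the same 0.614% of all genes tested. At that rate a list of this length holds few or none. Of 17 round spermatid genes none was called, with Spata18 at -1.60 (adjusted p = 0.115) and a median of -0.04. Of 19 spermatocyte genes 1 fell, Nme8, a protein of the axoneme (log2 -1.96, SE 0.40, adjusted p = 0.0459), and the median was 0.12.

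Ptpn7 (chr1:135132700-135145317), a tyrosine phosphatase that acts on MAP kinases, had the largest fold of all called genes. It was at 156.9 and 86.5 CPM in C and at 2.58 and 2.56 CPM in D, from 724 counts in C and 17 in D. The log2 change was -5.55 (SE 0.61, adjusted p = 0.00198, edgeR quasi-likelihood). The course was gradual on the rising side, with 37.0 and 54.2 CPM in A and 61.0 and 165.4 in B, and E stayed low at 9.19 and 4.60 CPM. Ptpn7 was near the floor in the knockout, with a median of 1.12 CPM and a highest value of 2.72. It was the 1 of 10 tested MAP kinase phosphatases that was called, against 0.628% of all genes tested. Its call held unless a library of D was left out.

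Alas2 (chrX:150547375-150570638), the enzyme that opens heme synthesis in red cell precursors, fell from 686.4 and 448.3 to 37.2 and 31.5 CPM (log2 -4.05, SE 0.45, adjusted p = 0.00198, edgeR quasi-likelihood). It was on the list of blood cell markers, where no other gene was abundant enough to be tested. The summed level of that list was 688.1 and 453.3 CPM in C and 40.9 and 38.2 CPM in D, nearly all of it Alas2, and Slc4a1, the red cell anion exchanger, had no count. In the knockout Alas2 ranged from 5.70 to 55.2 CPM, 3.16% of its level in groups A, B and E.

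The other genes of this class with the smallest p had log2 changes from -2.0 to -3.29, with an adjusted p from 0.00662 to 0.0208 by edgeR. Defb33, a beta-defensin, fell from 16.2 and 16.9 to 1.47 and 1.79 CPM. H2afb1, a histone variant of spermatids, fell from 62.8 and 98.4 to 15.1 and 10.3 CPM, and since it has near-identical copies on chromosome X its reads are of uncertain assignment. Spem1, a protein of spermatid maturation, fell from 247.5 and 384.2 to 53.1 and 73.5 CPM. Bpifa3, Paqr5, Ms4a5, the adenylyl cyclase Adcy2 and the small GTPase Diras2 fell by log2 changes of -2.58, -2.62, -2.12, -2.0 and -2.29. In each of these 8 genes the groups C and D did not overlap, as in 5700 of the 14331 genes tested. Their knockout mean was at most 4.76 CPM. The smallest change of the 52 was that of Spata6, at -1.32.

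**Figure D3:**
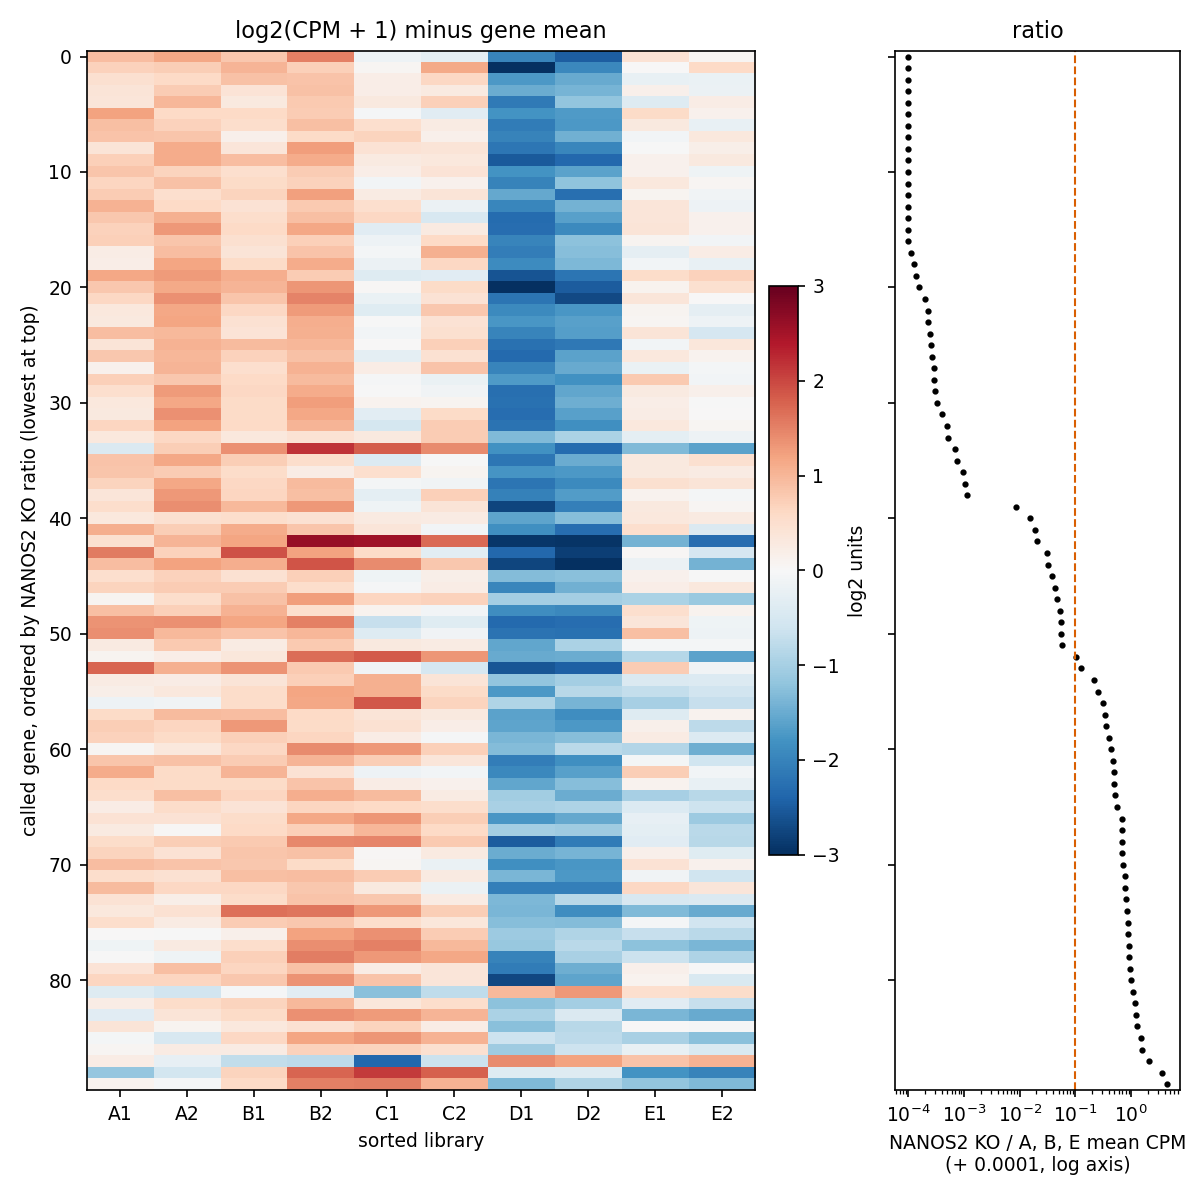
Left, log2(CPM + 1) minus the gene's mean in the 10 sorted libraries for the 90 called genes, ordered by their ratio of NANOS2 KO to sorted level; right, that ratio on a log axis, with the cutoff of 0.1 as a dashed line. Both libraries of D are blue in nearly every row, and E is paler, in the upper rows more than in the lower ones.

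The 2 genes that rose were both present in the knockout. Gsta3 (chr1:21240589-21265661), a glutathione transferase with steroid isomerase activity, was at 4.21 and 15.9 CPM in C and at 70.0 and 60.5 CPM in D. It was at 46.9 and 54.0 CPM in E, 30.1 and 21.4 in A, and 15.0 and 14.3 in B, so both libraries of D were above all 8 others. The log2 change was 2.68 (SE 0.47, adjusted p = 0.0250, edgeR quasi-likelihood), and the knockout ranged from 40.9 to 93.2 CPM with a median of 76.2. The call was lost without group C replicate 1, without either library of D or of E, and in a fit of C and D alone. It was the 1 called gene of 24 glutathione transferases and peroxidases, against 0.628% of all genes tested. Its relatives, named after their values were seen, did not pass: Gsta2 changed by -0.69 (adjusted p = 0.4239), Gsta1 by -0.34 (0.861) and Gsta4 by 0.16 (0.881). Any reads shared among related genes of this family would be of uncertain assignment, which was not examined. Tbc1d10c, a GTPase-activating protein, rose from 1.05 and 1.87 to 8.48 and 11.02 CPM (log2 2.70, SE 0.54, adjusted p = 0.0427), on 9 counts in C and 66 in D. Leaving out any of 7 of the 10 libraries ended its call.

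How the genes stood in the other stage groups was compared over the libraries of B and E. These lie outside the contrast of C with D but entered the estimate of the spread by which genes were called. The ratios are therefore a description and not a separate test. The ratio of mean CPM in E to that in B was under 0.5 for 26 of the 36 genes at or over the cutoff (72.2%), for 11 of the 52 low in it (21.2%), and for 5.67% of all genes tested. The medians of this ratio were 0.414, 0.629 and 1.01. Arhgef25 was at 19.6% of its B level in E, Cyp26b1 at 18.4% and Ptk2b at 9.70%, while Tnp1 was at 81.1% and Akap4 at 63.3%. As a description of the same libraries that chose the genes, both libraries of D were below all 8 others in 51 of the 52 and in 27 of the 36 genes, against 8.2% of all genes tested. The highest group mean was in C for 2 of the 52 and for 16 of the 36.

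In the NANOS2 KO testes 76 of 13065 genes tested (0.582%) differed among the 9 days. Of the 43 genes of the C to D step that could be tested there, 1 did, Arhgef25, with day means from 82.8 CPM on day 43 to 167.6 CPM on day 49 (adjusted p = 0.0256, edgeR quasi-likelihood F test). At an unadjusted p under 0.05 there were 14 of 43 (32.6%), against 11.1% of all genes tested. Cyp26b1 ran from 284.9 CPM on day 48 to 566.2 CPM on day 42 (adjusted p = 0.107) and Gsta3 from 51.0 CPM on day 42 to 92.1 CPM on day 46 (0.139). Gas6 and Espn had an adjusted p of 0.516 and 0.578. The number called ranged from 0 to 7 when 1 knockout library was left out, and the 7 came without day 49 replicate 2.

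Most groups of Sertoli genes held no member that passed the test by edgeR. None was called among 11 tested genes of the androgen response (median log2 change 0.23), 15 of tight and gap junctions (0.32), 13 of FSH, inhibin, activin and AMH signalling (0.10), 10 Sertoli transcription factors (0.19), 17 secreted and surface products (0.10), 4 niche growth factors (-0.74) and 11 Notch genes (0.29). With 0.628% of all genes called, lists of this length hold few or none at the background rate. Their members with the smallest p were Cldn3 (log2 1.13, adjusted p = 0.342), a claudin of the barrier, Tgfbr3 (-1.73, 0.255), Gata1 (1.04, 0.317), Fabp5 (-1.17, 0.121), Wnt6 (-1.07, 0.115) and the Notch ligand Jag1 (-1.54, 0.145). Gata1 shows the spread within C again, with 88.1 and 219.6 CPM there and 283.4 and 348.5 CPM in D. None was called either among 22 genes of glycolysis and lactate export (Pfkp at -1.96, adjusted p = 0.153), 20 of lipid use, 21 of cholesterol handling (Msmo1 at 1.03, 0.399), 14 proteases and inhibitors (Timp3 at 1.41, 0.222), 15 clock genes (Dbp at 0.54, 0.579) and 15 immediate early genes (Atf3 at 1.33, 0.381). Of 20 cell cycle genes none was called and 17 had a negative sign, against 7189 of the 14331 genes tested. Their median was -0.46. The list summed to 1487 and 851.2 CPM in C and 712.8 and 836.3 CPM in D, so group C replicate 1 was the high one. Plk1, a mitotic kinase, had 143.6 and 55.3 CPM in C and 10.3 and 17.9 CPM in D (log2 -2.79, adjusted p = 0.1002, edgeR). In the knockout Plk1 stood at 0.98% of its level in groups A, B and E. All 15 mitochondrially encoded genes had a positive sign (median 0.67), against 7142 of the 14331 genes tested, and none passed.

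No tested marker of Leydig, peritubular myoid, macrophage, endothelial or stromal cells was called in either direction. Lists this short hold few or none at the background rate of 0.628% of all genes tested. The calls therefore do not show whether the content of such cells changed. Of the Leydig cell list 4 of 9 genes were abundant enough to test, with a summed level of 26.3 and 37.8 CPM in C and 35.4 and 49.7 CPM in D, and the defining markers Insl3 and Lhcgr had no count in these 4 libraries. Hsd3b1 had the smallest p there (log2 -1.42, adjusted p = 0.370). The peritubular myoid list summed to 904.0 and 1132 CPM in C and 862.1 and 794.3 CPM in D, with Actg2 at -1.28 (adjusted p = 0.144). The macrophage list summed to 256.3 and 226.8 CPM in C and 146.3 and 156.8 CPM in D, of which 3 genes could be tested and none passed (Aif1 at -0.88, adjusted p = 0.370), and Lyz2 had no count. Aif1 made up much of the macrophage sum, with 157.3 and 106.2 CPM in C, and in the knockout testes it stood at 3.43% of its level in groups A, B and E, as did Actg2 at 3.14%, so these sums need not measure macrophages or myoid cells. Of 6 endothelial and 5 stromal genes tested none was called, with Tek at 1.05 (adjusted p = 0.556) and Fbln1 at 0.67 (0.479). The part of macrophage or spermatid transcripts in the falls of other genes was not tested.

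On the GRCm38 annotation 85 of the 90 called genes were placed, and 9 of these (10.6%) were on chromosome X, against 3.96% of all placed genes tested. Among genes low in the knockout it was 7 of 49 (14.3%), including Akap4, H2afb1 and Alas2, and among the others 2 of 34 (5.88%). Within 200000 bases of each other lay 3 pairs of called genes. Prm1 and Prm2 are 192 bases apart on chromosome 16, Cercam and Odf2 6381 bases on chromosome 2, and the predicted genes 1700003E24Rik and BC061195 26354 bases on chromosome X. Cercam, of the class at or over the cutoff, and Odf2, of the class under it, are named for their position. Overlap of reads between neighbours could not be examined, since the way reads were counted is not given in the sources used here.

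**Figure D4:**
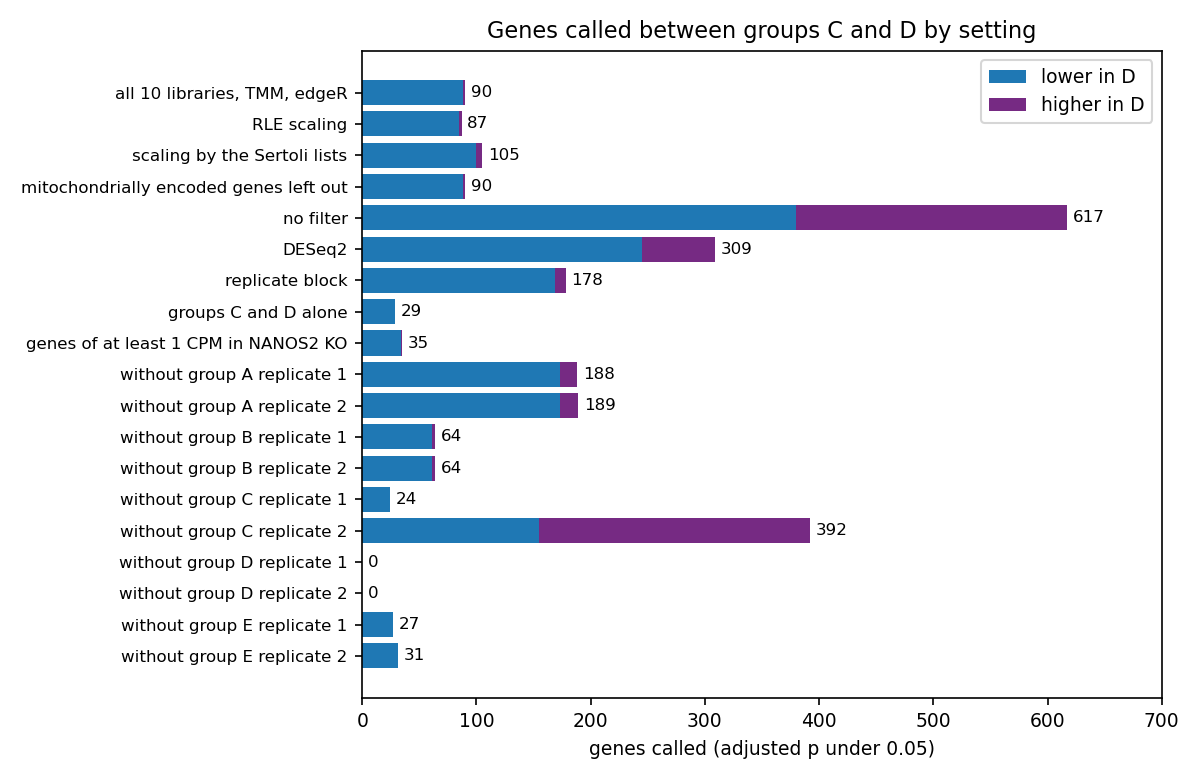
Number of genes called between groups C and D under each setting, split into lower in D and higher in D. The count is 90 with all 10 libraries, 0 without either library of D, 24 without group C replicate 1 and 392 without group C replicate 2, where most calls are higher in D.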

How the data were processed

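Polyadenylated RNA was sequenced on an Ion Proton, per the labels' protocols. The submitters' processing notes name Bowtie, TopHat, Cufflinks and the build mm10, without versions; for the annotation and the counting of reads, nothing is stated in those sources. The values used are the authors' deposited raw counts per gene, for 43280 rows and 1 column per library. Tables of normalised values were deposited too and were not used. The extraction label speaks of sorted germ cells, while the growth label describes sorted Sertoli cells; all libraries were kept.

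After filterByExpr and TMM scaling (factors 0.958 to 1.05) counts were tested with edgeR 4.0.16 in R 4.3.3, with 1 term per stage group over all 10 sorted libraries (biological coefficient of variation 0.268) and the contrast D minus C. Sorted CPM use the TMM scaling within the sorted set. Knockout ranges and ratios use a joint scaling of 28 libraries, and knockout day means the scaling within the knockout, so levels of 1 gene can differ between them. Total counts ran from 1901743 to 5279746 in sorted and from 1336742 to 4370138 in knockout libraries; a limit of 3 counts covers counting error only. Spreadsheet conversion had turned some symbols into dates, at 0.235 to 0.332% of the sorted counts, and these are not named. Replicates of a group differed by more than counting noise (chi-square per degree of freedom 10.9 to 33.1).

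Named genes are the markers Ptpn7, Gas6, Espn and Gsta3, the called rises, the 24 falls with the smallest p, and from each gene list up to 2 called members a direction or else the member with the smallest p; others are marked as chosen after their values were seen. Unnamed clones and predicted genes, 16 of the 90 calls, are left out except where named for position, and 1 gene under this rule is not reported here. The comparison, the members, the lists and the naming rule were chosen with earlier results of these data known, and a first set of promoter letters with few matches was replaced. Alternatives were RLE scaling, scaling by the Sertoli lists, leaving out mitochondrially encoded genes, DESeq2 1.42.0, no filter, a replicate block, C and D alone, genes that reach 1 CPM in the knockout, and leaving out each library. Counts of the elongating spermatid list and of the knockout classes under these settings were added after seeing the data.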

Additional observations from a re-analysis of the deposited data

How the results depend on the processing

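The count of 90 calls (2 higher, 88 lower) was 87 with RLE scaling, 105 (5 higher, 100 lower) with scaling by the Sertoli lists, which shifts the median of all genes by -0.24, and 90 without mitochondrially encoded genes. It moved to 617 (237 higher, 380 lower, 38.4% higher) with no filter and to 309 (64 higher, 245 lower, 20.7% higher) with DESeq2. It was 29 (0 higher, 29 lower) in groups C and D alone, with fewer libraries, and 35 (1 higher, 34 lower) among genes that reach 1 CPM in the knockout, with fewer genes. Leaving out 1 library gave 0 to 392 calls, 0 to 237 of them higher and 0 to 173 lower; the extremes came without either library of D and, for the total and the rises, without group C replicate 2, where 60.5% were higher. The cause of these moves was not tested. All 90 genes kept their sign in every setting that tested them (47 of the 90 in the setting of 1 CPM in the knockout). Since C and D did not overlap in any called gene, this could hardly have come out otherwise. With the replicate number as a block the count was 178 (9 higher, 169 lower), and 0 knockout genes of the step differed by day, in a fit that leaves out the unnumbered libraries of day 42. Same-numbered libraries deviated together in the 6 pairs of groups among A, B, D and E (correlations 0.143 to 0.43), where replicate 1 also had the higher mitochondrial share, but not in the 4 pairs with C (-0.111 to -0.035, with -0.05 for C and D), so the number was not taken to pair C with D. By day, 13 genes of the step were called with no filter, 3 with DESeq2 and 0 to 7 with 1 knockout library left out. For the same 88 falls, the share with a knockout ratio under 0.1 was 59.1 to 60.2% with 1 library of A, B or E left out of the ratio and 61.4% at a cutoff of 0.2; where the falls were called again without such a library it was 57.2 to 66.7%. The elongating spermatid count of 9 ran from 0 to 11 over the settings, with 0 also among genes that reach 1 CPM in the knockout, where 2 of the 19 could be tested. Depth limits genes near 3 counts, such as Slc16a4 and Tbc1d10c.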
